A study of Mus musculus with 6 samples.

Results

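The 36 genes described here are textbook transcriptional targets of p53, followed through chemotherapy in organoids whose p53 gene is mutated. They were chosen by name and function, with no threshold on a measured value but with earlier results of these data known, and all 36 are among the 24190 mouse genes of the count table. Counts were made by RNA sequencing of 6 cultures of MTO54 organoids, of which 3 were controls in complete stem cell medium and 3 were treated with Folfiri. MTO54 is an AKP line, grown from a colorectal tumor of an engineered mouse with mutations that include Apc and p53, and all 6 cultures share the genotype, the line and the medium. Organoids were dissociated, reseeded as single cells and, after 2 days, given Folfiri as 5FU at 50 μg/μl, the unit being the one on the label, plus SN38 at 100 nM for 2 days, while controls received fresh medium. A plot legend of the study gives a longer treatment than its methods and the labels do. 5FU is a pyrimidine analog that disturbs thymidylate supply and RNA metabolism, and SN38 is the active form of the topoisomerase inhibitor irinotecan. The organoids are 1 line of 1 genotype, with no line of intact p53 beside it, so the part that p53 status has in any value below cannot be told apart from the rest.

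p53 is a transcription factor that is kept scarce by the ubiquitin ligase Mdm2 and is stabilized when ATM, ATR and their kinase partners signal DNA damage. It then binds paired half-sites near its target genes and raises their transcription, which halts the cell cycle, promotes repair or starts apoptosis. Colorectal cancers often lose it late in their progression, and many of its targets also have p53-independent inputs, among them the unfolded protein response, FOXO factors and growth factor signalling.

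The libraries held between 22103591 and 30098210 counts, and a count above 0 was found for 18088 to 18613 genes in controls and for 20616 to 20799 genes after Folfiri. Levels are given as CPM, counts scaled to a common library size, after TMM normalization, which rescales each library by factors that were 0.88 to 0.966 in controls and 1.1 to 1.11 after Folfiri. Without these factors the median log2 fold change of all genes moved from 0.02 to 0.30, and 63.3% instead of 51.0% of the called genes were higher. Control replicate 1 stood apart from its group (chi-square per degree of freedom 23.7 and 22.4 against the other controls, which differed from each other by 3.84), and so, less far, did Folfiri replicate 3 (12.3 and 11.9, against 3.55). The labels do not say whether the cultures were seeded independently, so p-values measure the spread between these samples. In bulk RNA, fewer cells of a type and less RNA per cell cannot be told apart.

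As a check of the line, Trp53 itself (chr11:69580359-69591873, GRCm38) was counted at a low level in every library. It stood at 2.77, 2.04 and 1.90 CPM in controls and at 6.94, 8.26 and 8.25 CPM after Folfiri. All treated cultures lay above all controls, a 3.45-fold rise (log2 fold change 1.79, SE 0.168, adjusted p = 3.11e-06 by edgeR's quasi-likelihood test with Benjamini-Hochberg adjustment, as for all adjusted p-values here). Gene counts do not show which part of the transcript was read, and the sources used here do not describe the p53 allele, so these values say nothing of whether a functional protein was made.

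Of the 36 targets, 34 had enough counts to be tested. At an adjusted p under 0.05, 10 of them rose and 20 fell after Folfiri, while 4 were not called. Among all 14692 genes tested, 40.3% rose and 38.8% fell by the same rule, so Folfiri changed most of the transcriptome, and the targets rose in 29.4% and fell in 58.8% of the 34. With a log2 fold change of at least 1 required as well, 5 targets rose and 9 fell, against 19.5% and 16.8% of all genes. The median log2 fold change of the 34 was -0.46, against 0.02 for all genes, a gap of -0.48. Scaling by total counts alone shifts all genes by nearly the same amount, so the gap could not move with it and was -0.48 again. The median of the targets themselves became -0.18 with it. The gap was -0.40 without Folfiri replicate 3. It was -0.73 with no filter on low counts and -0.74 with DESeq2's Wald test, both of which take in more rare genes. With total counts alone 11 targets rose (32.4%) and 15 fell (44.1%), against 49.8% and 28.9% of all genes. The summed level of all 36 genes was 1641 to 1871 CPM in controls and 1215 to 1236 CPM after Folfiri. In 32 of the 36 the 3 treated values lay on one side of the 3 control values, as in 57.9% of all 24190 genes. Of the 30 called targets, the control nearest to the treated cultures was replicate 1 in 22, or 73.3%, against 60.8% of all 11623 called genes. Without that library 12 targets rose and 20 fell, and without Folfiri replicate 3, 11 rose and 20 fell.

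**Figure D1:**
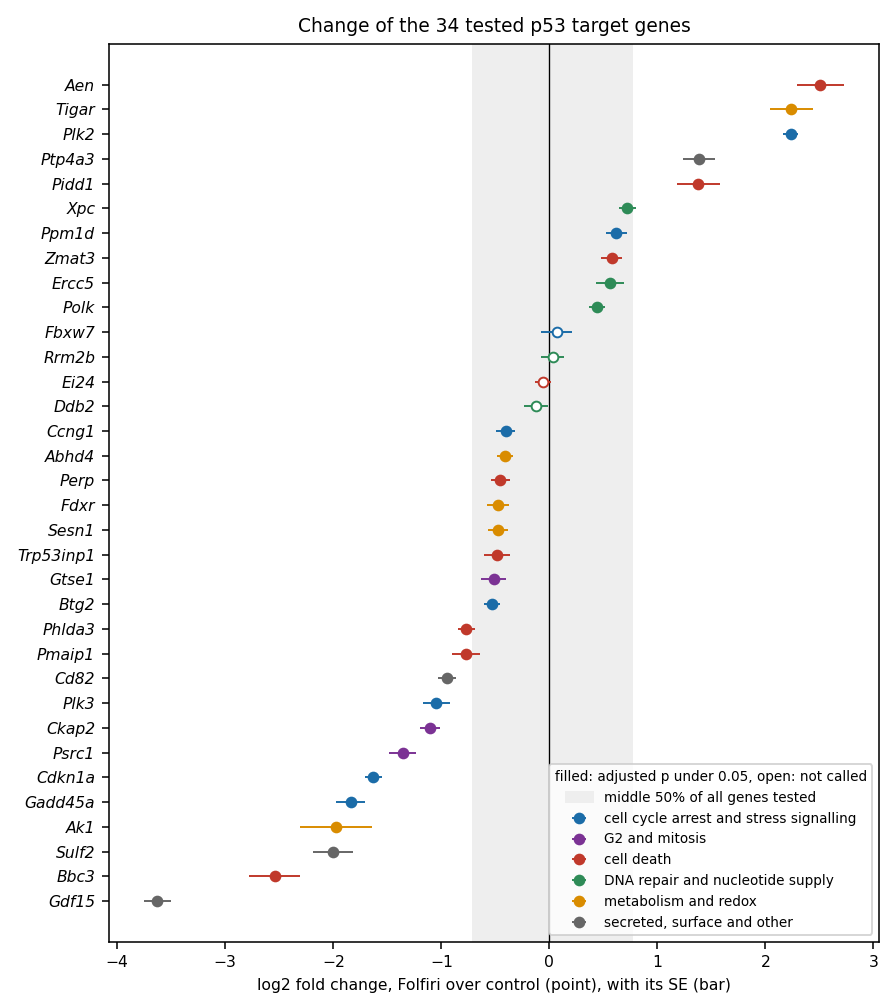
Log2 fold change of each of the 34 tested p53 targets, Folfiri over control (point) with its SE (bar), colored by role; filled points have an adjusted p under 0.05 and the gray band spans the middle 50% of all genes tested. Gdf15 at -3.63 and Bbc3 at -2.54 lie farthest to the left, and Aen at 2.51, Tigar and Plk2 at 2.24 farthest to the right.

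The sequences at the starts of these genes are shown first, since a p53 site is what the list has in common. RefSeq promoter windows (GRCm38.p6, from 250 bases before to 50 bases after each annotated start) were at hand for 28 of the 36 genes, all but Ddb2, Perp, Zmat3, Pmaip1, Rrm2b, Xpc, Trp53inp1 and Ptp4a3. A p53 half-site, a motif of 10 bases that reads alike on both strands (a run of purines, C, A or T bases, G, a run of pyrimidines), was found in at least 1 window of 11 of the 28 genes, or 39.3%, and in 9.55% of 27025 genes overall. The holders were Cdkn1a, Ccng1, Gadd45a, Sesn1, Ckap2, Gtse1 and Abhd4, which fell, Aen, Ppm1d and Polk, which rose, and Ei24, which was not called. The calls of Ccng1, Sesn1 and Abhd4 were lost with total counts alone. Of the 17 genes without one in these windows, 4 rose, 10 fell, 1 was not called and 2 were not tested. The windows are short, so a gene without a match in them can still hold a p53 site elsewhere. Holding a half-site in a window thus went with both directions.

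A pair of half-sites with at most 13 bases between them was found in 0.0731% of all 32851 windows and, among the targets, at Cdkn1a. It is shown here with the half-sites in capitals, and lies at chr17:29090876-29090967 (plus strand), before the upstream of the 2 annotated Cdkn1a starts.
Cdkn1a: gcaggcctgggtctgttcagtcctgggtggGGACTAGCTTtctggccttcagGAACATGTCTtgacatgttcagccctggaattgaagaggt
The second half-site is followed directly by bases that make a further half-site but for 1 base, so that the 20 bases at chr17:29090928-29090947 match a full p53 site at 19 positions. A search for such a near-full site, added after this sequence had been seen, found it in 0.0883% of all windows and 0.107% of genes, and among the targets at Cdkn1a, Ccng1 and Gtse1, all of which fell.

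Half-sites of 4 further genes are printed for comparison, 2 of genes that fell and 2 of genes that rose, again with the half-site in capitals. That of Ccng1 is part of its near-full site at chr11:40755462-40755481, whose other bases stand directly before the capitals. Ccng1 is at chr11:40755432-40755501 (minus strand) and Ppm1d at chr11:85311092-85311161 (plus strand), both before the annotated gene. Gadd45a is at chr6:67037428-67037457 (minus strand) and Aen at chr7:78895927-78895956 (plus strand), and since both stretches lie in exon sequence, fewer bases are given.
Ccng1: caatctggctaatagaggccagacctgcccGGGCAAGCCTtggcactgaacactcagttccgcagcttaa
Gadd45a: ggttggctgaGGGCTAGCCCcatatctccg
Ppm1d: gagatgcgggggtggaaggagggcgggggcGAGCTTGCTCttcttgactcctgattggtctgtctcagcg
Aen: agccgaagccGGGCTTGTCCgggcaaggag
The CHR element TTTGAA, the site of the DREAM complex through which p53 lowers cell cycle genes, was searched on both strands as well. It was in 5 of the 28 targets, or 17.9% (Aen, Ckap2, Ercc5, Fdxr and Gdf15), and in 20.2% of genes overall. A match in these windows describes the letters and not binding.

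The first role is cell cycle arrest and stress signalling, with 8 genes, of which 2 rose, 5 fell and 1 was not called (median log2 fold change -0.47). Cdkn1a, which encodes the CDK inhibitor p21 and is the best known arrest gene of p53, stood at 238, 276 and 254 CPM in controls and at 82.8, 77.8 and 87.7 CPM after Folfiri. Every treated culture was below every control, and the level fell 3.09-fold (log2 fold change -1.63, SE 0.0813, adjusted p = 3.91e-08). Gadd45a, a stress sensor that binds PCNA and p21, went from 35.6, 49.0 and 48.2 CPM to 11.8, 11.3 and 13.9 CPM. It fell 3.58-fold (log2 fold change -1.84, SE 0.135, adjusted p = 5.04e-07), with control replicate 1 the lowest control. An opposite-strand transcript, E230016M11Rik, overlaps 19.1% of its exon length but has 66 counts in all against 4311.

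Plk3, a stress-activated polo-like kinase, was at 36.3, 52.4 and 47.4 CPM in controls and 21.9, 21.1 and 22.9 CPM after Folfiri. It fell 2.06-fold (log2 fold change -1.05, SE 0.124, adjusted p = 1.81e-05). Its relative Plk2, likewise induced by p53 and by cell stress, went the other way. Plk2 stood at 26.1, 26.6 and 26.6 CPM in controls and at 122, 129 and 122 CPM after Folfiri, a 4.71-fold rise (log2 fold change 2.24, SE 0.0701, adjusted p = 3.10e-09). The 3 controls were nearly alike, control replicate 1 included, and far below the treated cultures.

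Ppm1d, the phosphatase Wip1 that switches p53 and checkpoint kinases off, was at 14.6, 12.96 and 13.6 CPM in controls and 20.1, 22.5 and 20.6 CPM after Folfiri. It rose 1.54-fold (log2 fold change 0.62, SE 0.0949, adjusted p = 0.000124). Ccng1, cyclin G1, which feeds back on Mdm2, went from 46.9, 42.8 and 39.6 CPM to 33.1, 34.4 and 30.4 CPM. Its groups did not overlap and it fell 1.32-fold (log2 fold change -0.40, SE 0.0889, adjusted p = 0.00162), a call that was lost with total counts alone (-0.13, adjusted p = 0.295). Btg2, an antiproliferative gene, fell with a log2 fold change of -0.53 under TMM and -0.26 with total counts alone. Fbxw7, the substrate receptor of a ubiquitin ligase for cyclin E, was not called, at a mean of 14.7 CPM in controls and 15.4 CPM after Folfiri. Its controls ranged from 12.4 to 18.4 CPM with replicate 1 highest, and without that library it was called higher (log2 fold change 0.27, adjusted p = 0.0159).

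**Figure D2:**
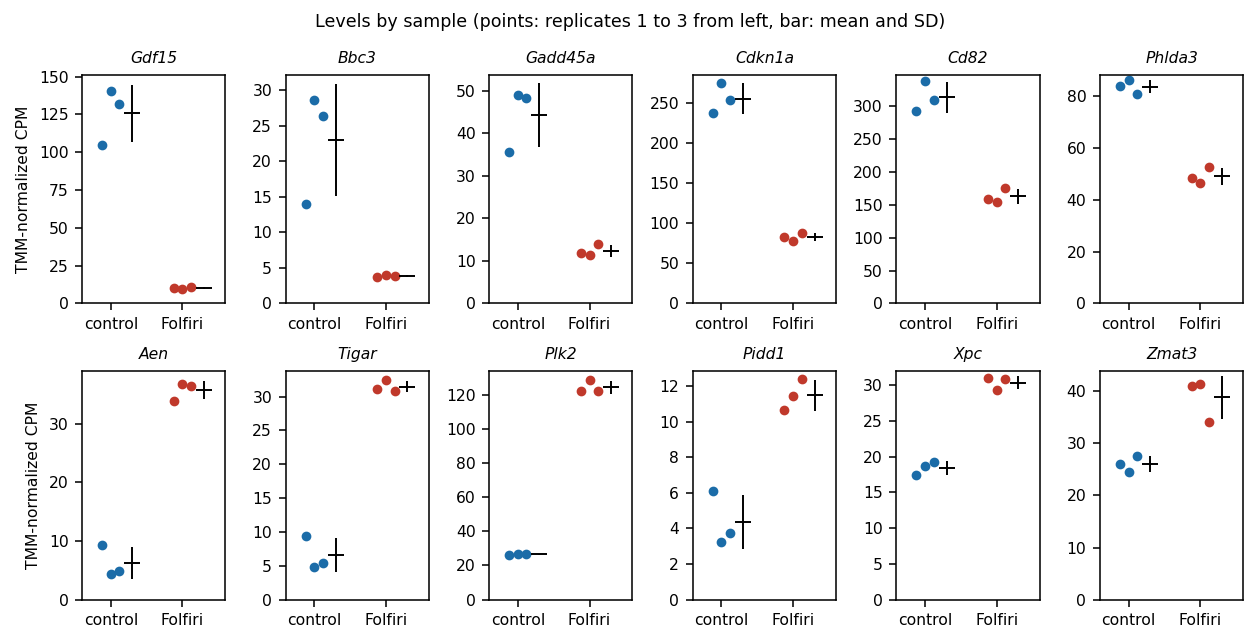
TMM-normalized CPM of 12 p53 targets in each of the 3 control (blue) and 3 Folfiri (red) cultures, with the mean and SD as a cross; each axis starts at 0. In the upper row all treated cultures lie below all controls and in the lower row above them, and control replicate 1, the leftmost blue point, lies nearest to the treated cultures for Gdf15, Bbc3, Gadd45a, Cdkn1a, Cd82, Aen, Tigar and Pidd1.

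The 3 targets with a role in G2 and mitosis all fell. Psrc1, which binds spindle microtubules, was at 9.22, 10.6 and 10.2 CPM in controls and 3.96, 3.62 and 4.13 CPM after Folfiri (log2 fold change -1.36, SE 0.124, adjusted p = 2.51e-06). Ckap2, a spindle protein, went from 92.3, 105 and 116 CPM to 45.4, 51.2 and 49.0 CPM (log2 fold change -1.11, SE 0.0938, adjusted p = 1.40e-06). Gtse1, a G2 and S phase protein that restrains p53, went from 59.8, 80.1 and 82.6 CPM to 49.8, 52.4 and 53.3 CPM (log2 fold change -0.52, SE 0.114, adjusted p = 0.00161). The groups of all 3 were apart, for Gtse1 with control replicate 1 close to the treated cultures.

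These 3 genes are also expressed with the cell cycle, and proliferation genes were lower in the same cultures. Of 20 proliferation genes, 19 fell and Birc5 was not called (log2 fold change -0.10, and 0.18 and called higher with total counts alone), with a median log2 fold change of -0.95 and a summed level of 5274 to 6494 CPM in controls against 2673 to 2748 CPM after Folfiri. Mki67, the Ki-67 antigen of cycling cells, stood at 769, 701 and 736 CPM in controls and at 267, 258 and 212 CPM after Folfiri (log2 fold change -1.58, SE 0.099, adjusted p = 1.72e-07). The part of proliferation in the fall of the targets was not tested. Without the 3 mitotic genes, 10 of the 31 other tested targets rose (32.3%) and 17 fell (54.8%), with a median log2 fold change of -0.41.

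Among the 10 cell death targets, 9 were tested, of which 3 rose, 5 fell and 1 was not called (median log2 fold change -0.45). The BH3-only genes, whose products disable the prosurvival BCL2 proteins, were both lower. Bbc3, which encodes Puma, was at 14.0, 28.6 and 26.4 CPM in controls and at 3.79, 4.07 and 3.91 CPM after Folfiri. The treated cultures were nearly alike while control replicate 1 was far below the other controls, and Bbc3 fell 5.83-fold (log2 fold change -2.54, SE 0.239, adjusted p = 3.05e-06), with a range of -2.81 to -2.36 over fits without 1 library. Pmaip1, which encodes Noxa, went from 58.1, 82.9 and 83.8 CPM to 46.2, 44.4 and 41.2 CPM, a 1.70-fold fall (log2 fold change -0.77, SE 0.129, adjusted p = 0.000243).

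Phlda3, whose product blocks membrane recruitment of AKT, was even among replicates, at 84.2, 86.2 and 81.1 CPM in controls and 48.5, 46.4 and 52.8 CPM after Folfiri. It too fell 1.70-fold (log2 fold change -0.77, SE 0.0756, adjusted p = 4.29e-06). Perp, a desmosomal membrane protein of p53-dependent apoptosis, and Trp53inp1, an autophagy and stress protein, fell less, with log2 fold changes of -0.45 and -0.49. With total counts alone Perp had -0.17 and remained called, while Trp53inp1 had -0.21 and an adjusted p of 0.176. Ei24, an endoplasmic reticulum protein, was not called, with a control mean of 71.5 ± 4.97 CPM and a treated mean of 68.5 ± 1.57 CPM (SD, n = 3 per group), and with total counts alone its sign turned and it was called higher (0.22).

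The death targets that rose were Aen, Pidd1 and Zmat3. Aen, an exonuclease that degrades DNA and RNA in apoptosis, went from 9.33, 4.32 and 4.89 CPM to 33.9, 36.8 and 36.5 CPM. That is a 5.69-fold rise, the highest among the tested targets that rose (log2 fold change 2.51, SE 0.220, adjusted p = 1.81e-06). Control replicate 1 was the highest control, and the log2 fold change ranged from 2.29 to 2.97 without 1 library. Pidd1, the scaffold of the caspase-2 PIDDosome, went from 6.09, 3.24 and 3.75 CPM to 10.6, 11.4 and 12.4 CPM (log2 fold change 1.38, SE 0.200, adjusted p = 8.10e-05). Zmat3, an RNA-binding splicing regulator, was at 26.0, 24.5 and 27.6 CPM in controls and 41.1, 41.4 and 34.1 CPM after Folfiri (log2 fold change 0.58, SE 0.0971, adjusted p = 0.000242). For each of the 3 genes every treated culture was above every control.

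Eda2r, a death receptor of the TNF receptor family, was too rare to be tested. It had 2, 0 and 0 counts in controls and 10, 18 and 6 counts after Folfiri, so all treated cultures held more counts than any control. Over the groups the ratio of levels was 13.1 with an exact 95% interval of 3.36 to 112.5, which covers counting error only.

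The DNA repair and nucleotide supply group had 5 genes (median log2 fold change 0.44). Of these, 3 rose (60.0%, against 40.3% of all genes tested) and 2 were not called. With total counts alone 3 rose again, against 49.8% of all genes. Xpc, which recognizes helix-distorting lesions, was at 17.4, 18.6 and 19.2 CPM in controls and 31.0, 29.2 and 30.8 CPM after Folfiri. It rose 1.65-fold (log2 fold change 0.72, SE 0.0825, adjusted p = 1.34e-05). Ercc5, an endonuclease that cuts the damaged strand beside such lesions, went from 9.29, 8.16 and 7.56 CPM to 13.95, 12.5 and 10.7 CPM (log2 fold change 0.56, SE 0.133, adjusted p = 0.00244). Polk, a polymerase that copies past lesions, went from 27.8, 26.6 and 26.9 CPM to 36.6, 38.4 and 35.5 CPM (log2 fold change 0.44, SE 0.0758, adjusted p = 0.000279). The groups of all 3 were apart, and none of the 3 reached a log2 fold change of 1.

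Ddb2, a lesion sensor that works ahead of Xpc, stood at 9.31 ± 0.546 CPM in controls and 8.56 ± 0.200 CPM after Folfiri, with overlapping groups. Its value is uncertain, as Acp2 on the opposite strand overlaps 23.8% of its exon length with 2406 counts against 1480 for Ddb2, and whether reads were assigned by strand is not given in the sources used here. Rrm2b, the p53-inducible subunit of ribonucleotide reductase, stood at 21.5 ± 3.09 CPM and 22.04 ± 1.33 CPM. Neither was called, with log2 fold changes of -0.12 (SE 0.107, adjusted p = 0.308) and 0.03 (SE 0.111, adjusted p = 0.814). With total counts alone the sign of Ddb2 turned (0.15, adjusted p = 0.280).

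In the metabolism and redox group, 1 of 5 genes rose and 4 fell, and 3 of the falls did not outlast another scaling. Tigar, a phosphatase that slows glycolysis and spares NADPH, went from 9.47, 4.84 and 5.399 CPM to 31.2, 32.4 and 30.8 CPM. It rose 4.73-fold (log2 fold change 2.24, SE 0.198, adjusted p = 1.87e-06), and control replicate 1 was again the control nearest to the treated cultures. Sesn1, a stress-induced inhibitor of mTORC1, went from 16.6, 19.0 and 17.9 CPM to 12.9, 12.7 and 12.8 CPM (log2 fold change -0.48, SE 0.0940, adjusted p = 0.000751). Fdxr, the mitochondrial ferredoxin reductase, went from 11.0, 11.9 and 11.8 CPM to 8.38, 8.29 and 8.31 CPM (log2 fold change -0.47, SE 0.102, adjusted p = 0.00141). Abhd4, a lipase of N-acyl phospholipids, fell with a log2 fold change of -0.41. With total counts alone Sesn1, Fdxr and Abhd4 had -0.20, -0.19 and -0.13 and were not called, although the treated and control values of all 3 were apart under TMM.

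Ak1, an adenylate kinase, was rare, at 1.12, 1.04 and 0.720 CPM in controls and 0.335, 0.258 and 0.152 CPM after Folfiri. It fell 3.92-fold with the least precise estimate of the 34 (log2 fold change -1.97, SE 0.333, adjusted p = 0.000253).

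The last group holds secreted, surface and other proteins, of which 4 of 5 were tested, 1 rose and 3 fell (median log2 fold change -1.47). Gdf15, a stress cytokine of the TGF-β superfamily, was at 105, 141 and 132 CPM in controls and at 9.93, 9.49 and 11.0 CPM after Folfiri. The 3 treated cultures were alike, and the 12.4-fold fall was the largest change among the tested targets (log2 fold change -3.63, SE 0.124, adjusted p = 4.48e-09). Its log2 fold change lay at percentile 0.613 of all genes tested. Sulf2, which removes sulfate from heparan sulfate chains outside the cell, went from 8.68, 8.08 and 5.97 CPM to 1.91, 2.16 and 1.64 CPM (log2 fold change -2.00, SE 0.183, adjusted p = 2.44e-06). Ncoa3 overlaps 2.62% of its exon length on the opposite strand, with 9779 counts against 737.

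Cd82, a tetraspanin and suppressor of metastasis, was at 293, 339 and 309 CPM in controls and 158, 155 and 175 CPM after Folfiri (log2 fold change -0.94, SE 0.0823, adjusted p = 1.72e-06). Ptp4a3, the phosphatase PRL-3 known from metastatic colorectal cancer, went from 7.38, 5.08 and 5.86 CPM to 17.2, 14.6 and 16.3 CPM (log2 fold change 1.39, SE 0.144, adjusted p = 6.45e-06). For both genes the groups were apart. Zfp365, a zinc finger protein of telomere and fragile site stability, was not tested, with 2, 0 and 1 counts in controls and 5, 7 and 9 after Folfiri. The ratio of its levels was 5.39 (exact 95% interval 1.61 to 28.2, counting error only).

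The targets differed widely in level, which can be compared between genes per kilobase of annotated exon. In controls the highest mean levels per kilobase were those of Cd82 at 104, Perp at 91.1, Cdkn1a at 72.0, Gdf15 at 67.9 and Phlda3 at 53.8 CPM. After Folfiri the order was Perp at 66.6, Cd82 at 54.2, Phlda3 at 31.6, Plk2 at 27.7 and Cdkn1a at 23.3 CPM per kilobase, and Gdf15 stood at 5.48. Cdkn1a thus kept a level per kilobase well above that of Trp53 itself, which was 0.553 in controls and 1.93 after Folfiri. The control levels per kilobase of the genes that rose most were 1.07 for Aen, 1.80 for Tigar and 5.89 for Plk2.

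**Figure D3:**
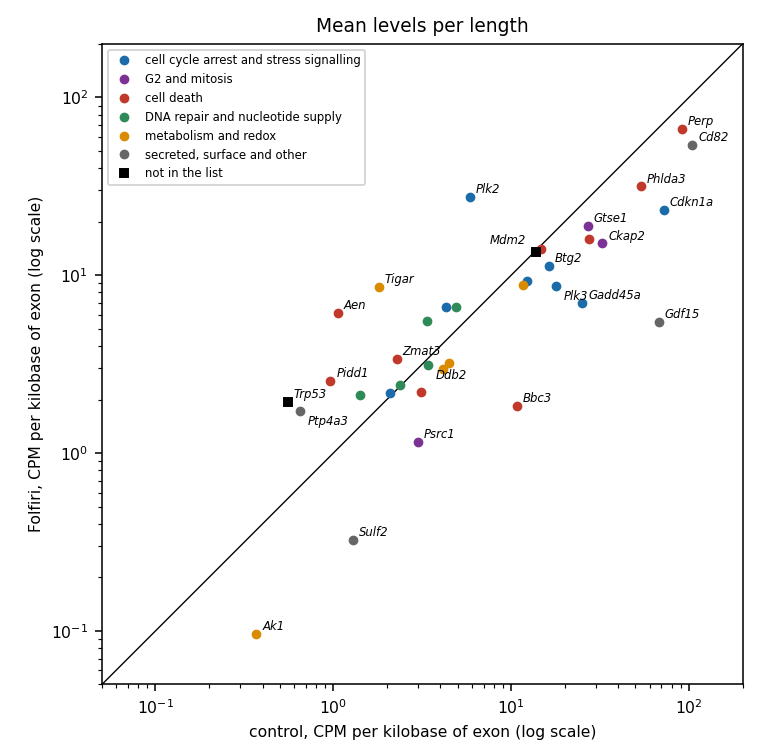
Mean level of each tested target in CPM per kilobase of exon, control against Folfiri, both axes on a log scale, with the line of equal levels; black squares are Trp53 and Mdm2, which are not in the list, and only some points are named. Gdf15 and Bbc3 lie far below the line and Aen, Tigar and Plk2 far above it, and Mdm2 lies on it.

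The 20 further p53 targets, a second list that also includes Mdm2, Bax and Fas, were described the same way. Of 18 tested, 6 rose (33.3%, against 40.3% of all genes), 9 fell (50.0%, against 38.8%) and 3 were not called, with a median log2 fold change of -0.15. With total counts alone 9 rose (50.0%, against 49.8% of all genes) and 8 fell (44.4%, against 28.9%), with a median of 0.13 against 0.30. Mdm2, at once the target and the ubiquitin ligase of p53, was at 69.4, 67.6 and 73.5 CPM in controls and 68.5, 70.5 and 66.4 CPM after Folfiri. Its groups overlapped (log2 fold change -0.03, SE 0.0702, adjusted p = 0.665), and with total counts alone its sign turned and it was called higher (0.24). Bax, the pore-forming apoptosis effector, went from 36.1, 39.3 and 35.2 CPM to 48.8, 48.0 and 52.3 CPM, a 1.35-fold rise (log2 fold change 0.43, SE 0.0789, adjusted p = 0.000449).

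Fas, the death receptor, was rare at 0.108, 0.360 and 0.154 CPM in controls and 0.973, 0.839 and 0.850 CPM after Folfiri. It rose 4.19-fold (log2 fold change 2.07, SE 0.373, adjusted p = 0.000403), all treated cultures lying above all controls. Its controls held 3, 9 and 3 counts, and the log2 fold change was 2.75 without control replicate 2. Rps27l, a ribosomal protein paralog, and Triap1, an inhibitor of apoptosome assembly, rose with log2 fold changes of 0.68 and 0.49. Rps27l shares sequence with Rps27, and how reads with several positions were counted is not given in the sources used here. Ddit4, an mTORC1 inhibitor that hypoxia and stress also induce, went from 906, 1242 and 1302 CPM to 61.2, 56.96 and 57.6 CPM (log2 fold change -4.30, SE 0.143, adjusted p = 3.95e-09). Ccng2, a cyclin that FOXO factors induce, went from 391.5, 538 and 574 CPM to 152, 145 and 139 CPM (log2 fold change -1.79, SE 0.129, adjusted p = 4.49e-07). Dcxr, a carbonyl reductase, fell with a log2 fold change of -2.03. For Ddit4 and Ccng2 the groups were far apart and control replicate 1 was the lowest control. Dram1 and Sco2 were not tested, with 0 and 2 counts over the controls and 12 and 7 over the treated cultures, and Sco2 is uncertain because Ncaph2 and Tymp overlap most of its exons.

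Of the 16 genes of the p53 family and its upstream regulators, 14 were tested (median log2 fold change -0.30). Of these, 3 rose (21.4%, against 40.3% of all genes), 9 fell (64.3%, against 38.8%) and 2 were not called. With total counts alone 5 rose (35.7%, against 49.8% of all genes) and 5 fell (35.7%, against 28.9%). The p53 relatives that bind the same sites were close to absent. Trp63 had 0 counts in every control and 7, 3 and 6 counts after Folfiri. Against a floor of 3 counts over the control group this is a ratio of 4.11, with no allowance for counting error in the treated counts. Trp73 had 0, 1 and 1 counts in controls and 0 in every treated culture. Chek1, the kinase that ATR activates, went from 14.8, 12.5 and 11.4 CPM to 34.2, 33.8 and 35.2 CPM (log2 fold change 1.41, SE 0.104, adjusted p = 5.06e-07), with the groups far apart. Atr itself went from 42.0, 30.8 and 36.1 CPM to 16.3, 17.7 and 15.1 CPM (log2 fold change -1.15, SE 0.119, adjusted p = 6.28e-06). Besides Trp53 and Chek1, Ep300, an acetyltransferase and coactivator of p53, rose (log2 fold change 0.53). Usp7, which deubiquitinates Mdm2 and p53, and Cop1, another ubiquitin ligase of p53, fell with log2 fold changes of -0.84 and -0.78.

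**Figure D4:**
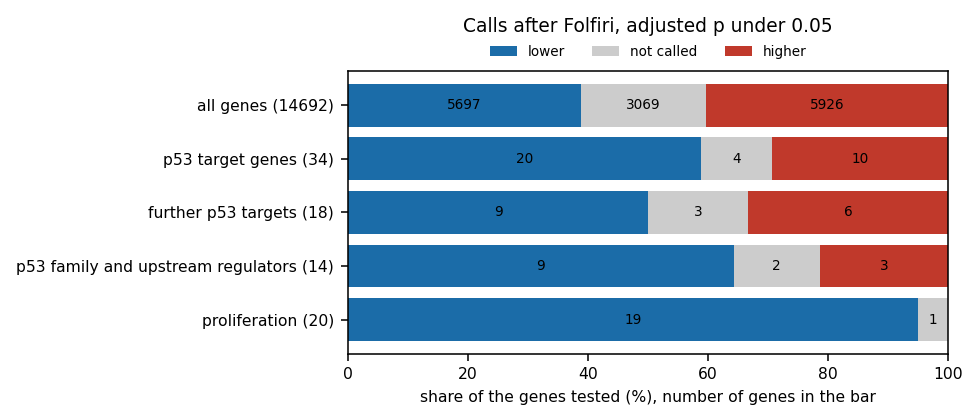
Share of tested genes called lower (blue), not called (gray) and higher (red) after Folfiri at an adjusted p under 0.05, for all 14692 genes and for 4 lists, with the number of genes in each bar. The p53 targets have 20 lower and 10 higher of 34, and the proliferation genes 19 lower of 20. With total counts alone the p53 targets have 15 lower and 11 higher, and the family and upstream regulators 5 and 5. Of all genes, 28.9% were lower and 49.8% higher with total counts alone.

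Epithelial markers were found in both groups. Of 10 such markers 9 were at 1 CPM or more in each group. Of the 9 tested, 5 fell (55.6%, against 38.8% of all genes), 1 rose (11.1%, against 40.3%) and 3 were not called. The fall of Krt8 was lost with total counts alone. Epcam stood at 1252 ± 145 CPM in controls and 653 ± 14.4 CPM after Folfiri. The colonic factor Cdx2 fell from 157 to 54.5 CPM (log2 fold change -1.53, SE 0.0677, adjusted p = 1.83e-08), while Cdx1, below the test's filter, had 19, 9 and 10 counts in controls and 0, 1 and 0 after Folfiri, and Krt20, a marker of differentiated cells, was at 1.44 and 1.31 CPM. Of 10 immune markers, Cd68 alone was at 1 CPM or more in controls, joined by Ptprc after Folfiri (1.06 CPM), and Cd3e had no count. The summed level of the immune list was 21.3 to 26.1 CPM in controls and 21.6 to 22.5 CPM after Folfiri. Of 10 fibroblast and endothelial markers, Cdh5 held most of a sum of 73.6 to 125.6 CPM in controls and 67.5 to 78.3 CPM after Folfiri, and Lum had no count. At the low levels below it, Pdgfra rose (0.397 CPM in controls, 1.15 CPM after Folfiri), Dcn rose from 2 counts in control replicate 1 and 0 in the other controls to 19, 26 and 20 counts, so that its fitted log2 fold change of 4.44 became 7.27 without that control, Col1a1 fell from 0.842 to 0.301 CPM, and 2 of the 5 tested markers of that list were not called. The part of these markers in the values of the p53 targets was not tested.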

How the data were processed

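RNA from 3 control and 3 Folfiri-treated MTO54 cultures was poly(A)-selected and sequenced. The authors aligned reads with STAR 2.5.2 to the mouse genome with GENCODE annotation, obtained read counts for each gene with Rsubread, and deposited these raw counts without normalization. The strand setting is not given in the sources used here. Samples were grouped by the labels.

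Starting from the counts, edgeR 4.0.16 in R 4.3.3 was fitted to all genes that passed filterByExpr, with TMM normalization, the quasi-likelihood test and Benjamini-Hochberg adjustment over all genes tested (threshold 0.05). The test was also run on simulated counts in which few genes changed, equally many in each direction. Such counts cannot check it where most genes change, as they did here. DESeq2 1.42.0, other scalings and filters, a replicate block and fits without 1 library were alternatives. Same-numbered cultures did not deviate together (correlations 0.0267, -0.117 and 0.0393), so the numbers were not used as pairs. Positions and exon lengths came from GENCODE vM21, on the authors' build GRCm38, and promoter windows from RefSeq. Depth, 22103591 to 30098210 counts per library, limits the rare genes, and intervals cover counting error only.

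The members, their roles and the other lists were chosen with earlier results of these data known. Every member is named. Values in every sample are given for Cdkn1a, Bbc3, Pmaip1, Ccng1, Zmat3, Phlda3, Eda2r and Gadd45a, and for up to 3 called members per role and direction with the largest change and non-overlapping groups. In the other p53 lists, Trp53, Mdm2, Bax, Fas, Trp63, Trp73 and up to 3 called genes per direction are named.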

Additional observations from a re-analysis of the deposited data

How the results depend on the processing

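Of the 30 called targets, 25 kept their direction and call in each of the 13 alternatives whose filter they passed. Scaling by total counts alone had the most effect, since it moved all genes upward: the median of the targets became -0.18 and that of the proliferation genes -0.67, and 5 regulators rose and 5 fell. Under it Ei24 (0.22), Rchy1 (0.26), Mdm2 (0.24), Pcna (0.21), Hipk2 (0.065) and Tgfa (0.046) turned from below to above 0, the first 4 of them then called, and so did Ddb2 (0.15), not called in either. Fbxw7 and Rrm2b, not called, turned below 0 in some fits without 1 library. The targets that lost their call under it were Ccng1, Trp53inp1, Sesn1, Fdxr and Abhd4. With upper quartile scaling the median of the targets was -0.41. Leaving out 1 library gave medians of -0.47 to -0.38, the latter without Folfiri replicate 3, and 10 to 12 targets higher. The fit with the replicate block gave 10 targets higher and 20 lower with a median of -0.46, and of the tested targets, further targets and regulators Hipk2 lost its call in it (-0.21, adjusted p = 0.0647 by edgeR). Hipk2 also lost its call with upper quartile scaling (adjusted p = 0.095) and in 5 of 6 fits without 1 library (adjusted p = 0.076 to 0.113), so that the regulators that fell were 8 in these fits. Tgfa, a further target, lost its call with upper quartile scaling (0.111), under the 1 CPM filter (0.0514) and without control replicate 1, Folfiri replicate 2 or Folfiri replicate 3 (0.0523 to 0.134). DESeq2's Wald test called 11 targets higher and 20 lower. Ak1 did not pass the filter of a mean of at least 1 CPM. Depth limits Eda2r, Zfp365, Trp63, Trp73, Dram1 and Sco2, which did not pass the filter of the test. With no filter on low counts Eda2r and Zfp365 were tested and called higher (adjusted p = 0.000304 and 0.0154 by edgeR), and DESeq2 called Eda2r (0.00773) but not Zfp365 (0.0673).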
